A study of Mus musculus with 16 samples.

Results

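Mesenchyme is the name that label transfer from a reference atlas of mouse gastrulation and organogenesis gave to 1242 of the 37841 cells analysed here (3.28%), in chimeric mouse embryos of 3 stages, E7.5, E8.5 and E9.5. A cell was counted as Mesenchyme when it carried that transferred label, had passed the deposited RNA quality filter and was not called a doublet. Of these cells, 708 were wild-type (WT) and 534 were Stat3 null. The fewest came from E7.5, with 341, followed by 413 at E8.5 and 488 at E9.5.

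The chimeras were made by injecting cells of an embryonic stem cell line on the CD1 background, homozygous for a Stat3 deletion, into CD1 WT blastocysts, and donor and host cells were then compared within the same embryos. The donor cells carried an H2B-tdTomato reporter under a ubiquitous promoter, so that tdTomato-positive cells were sorted as Stat3 null and tdTomato-negative cells as WT. WT cells therefore came from the host and null cells from 1 donor line, so a difference of genotype and any other difference between donor and host cells, including culture as embryonic stem cells and clonal selection, cannot be told apart. Embryos were chosen for their donor contribution, and pools of about 10 embryos at E7.5, about 4 at E8.5 and about 1 at E9.5 gave 16 libraries. There were 2 libraries of each genotype at E7.5, 2 at E8.5 and 4 at E9.5, and within each group they are called A to D, letters that are names only and pair nothing. By design each pool gave 1 WT and 1 null library, and the E7.5 embryos were sorted by size before pooling. The library names carried by the cells match no pool label, so no fit or permutation below takes the pairing or the size into account. The study's account implies fewer E9.5 embryos than E9.5 libraries of either genotype. If so, some libraries of the same genotype at E9.5 come from the same embryo. The 4 libraries of each genotype at E9.5 are then not 4 independent embryos. SDs, calls and p-values at E9.5 then measure the spread between libraries and not between embryos.

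STAT3 is a transcription factor activated by cytokine receptors of the gp130 family through Janus kinases, and it is best known in the early embryo for sustaining pluripotent cells and for driving targets such as Socs3. Mesenchyme in the reference atlas is a mesodermal population of the extraembryonic and lateral plate lineages, whose loosely arranged cells lay down extracellular matrix and send signals to neighbouring epithelia, heart and vessels. Hand1 encodes a basic helix-loop-helix transcription factor of extraembryonic mesoderm, lateral mesoderm and heart, and Postn encodes periostin, a secreted matrix protein of mesenchyme and connective tissue.

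The Mesenchyme libraries held between 27 and 160 cells each. Their summed counts of unique molecular identifiers (UMIs, 1 per captured transcript) ranged from 1070395 to 5859698, with a median of 18241 to 55208 UMIs per cell. Among all cells 978 shared a barcode with a cell of another library, among them 27 Mesenchyme cells, and 0 barcodes were shared between Mesenchyme cells. A tdTomato UMI was found in 78.9 to 100% of the null Mesenchyme cells of a library. The lowest share was that of E8.5 null B, which also had the lowest tdTomato level, 73.0 CPM (UMIs of a gene scaled to the same total in each library) against 136 to 238 in the other null libraries. E8.5 null B stood apart in imprinted genes as well, and the E8.5 genotype comparison is given below with and without it.

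The transferred label was checked against 12 marker genes. Their summed level was 2947 to 6347 CPM in the Mesenchyme of the 16 libraries and 302 to 911 CPM in all the other cells of the same libraries. The label itself was assigned from gene expression, so the difference is a description and was not tested. Hand1 was above the other cells at every stage. Its level was 759 and 753 CPM in the E7.5 WT libraries, 622 and 691 CPM in E7.5 null, 450 and 468 CPM in E8.5 WT, and 416 and 753 CPM in E8.5 null. At E9.5 it was 301, 303, 261 and 320 CPM in WT and 321, 260, 269 and 386 CPM in null. In the other cells Hand1 was at 13.2 to 160 CPM, and the other cells of a library were always below its Mesenchyme.

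Postn was low in the E7.5 cells. It was at 5.67 and 5.92 CPM in E7.5 WT and at 6.997 and 1.97 CPM in E7.5 null, a level based on 32 and 45 UMIs, against 0 to 0.167 CPM in the other cells of those libraries. It was high from E8.5 on, at 636 and 331 CPM in E8.5 WT, 561 and 361 CPM in E8.5 null, 743, 436, 415 and 715 CPM in E9.5 WT, and 760, 232, 567 and 705 CPM in E9.5 null. The fibrillar collagens followed the same order of stages. Col3a1, a fibrillar collagen of loose connective tissue, was at 2.12 to 10.3 CPM at E7.5, and Col1a1, the main collagen of bone and skin, at 55.5 to 140 CPM in the same 4 libraries. Col1a1 reached 663 to 1022 CPM in E9.5 WT. In the other E7.5 cells Col1a1 was at 4.32 to 9.29 CPM. The E7.5 cells thus had Hand1 and some Col1a1, with Postn and Col3a1 at a small part of their later levels.

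**Figure D1:**
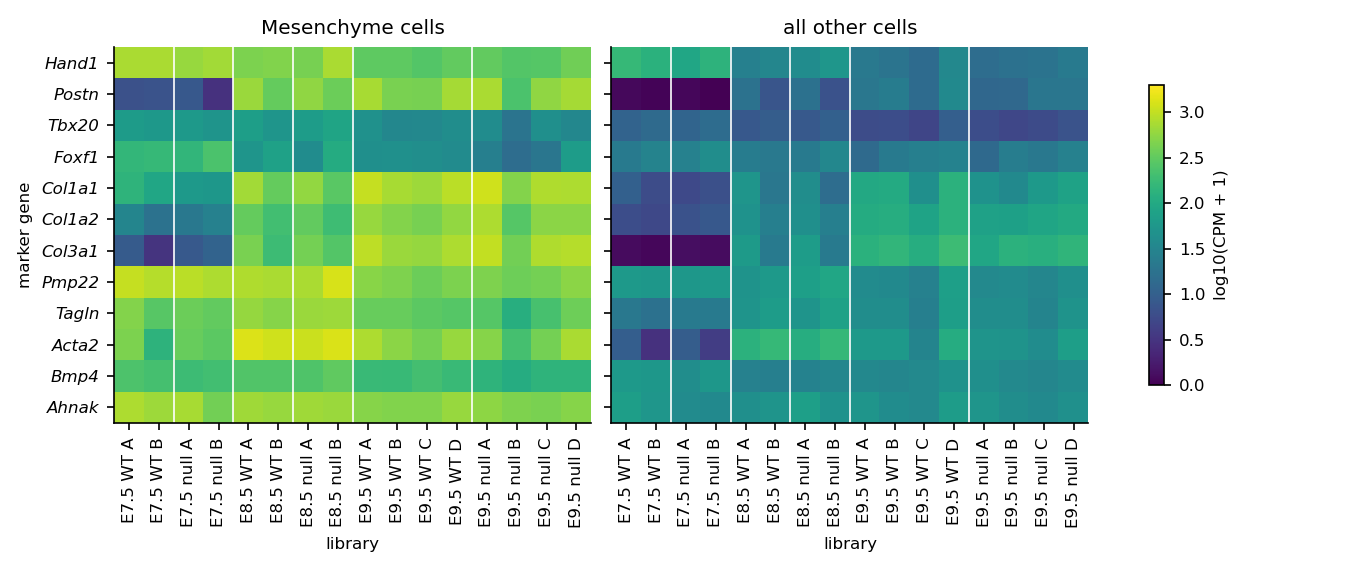
Levels of Mesenchyme marker genes as heat maps on a log scale of CPM, with 1 column per library for WT and null libraries of the 3 stages. The left map shows Mesenchyme cells and the right map all other cells. Hand1 is high at every stage, whereas Postn lies at 1.97 to 6.997 CPM at E7.5 and at 232 CPM or above in every later library.

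Shares of single cells gave the same picture at equal depth. After each cell was thinned to 10000 UMIs (all 1242 cells reach that depth), a Hand1 UMI was found in 97.3 to 100% of a library's E7.5 cells, in 87.6 to 97.4% of the E8.5 cells and in 55.3 to 87.8% of the E9.5 cells. A Postn UMI was found in 3.66 to 7.32% of E7.5 cells, 51.9 to 57.5% of E8.5 cells and 44.4 to 65.4% of E9.5 cells. A Col1a1 UMI was found in 52.4 and 61.0% of E7.5 WT cells and 28.6 and 29.7% of E7.5 null cells. In epiblast cells at E7.5, which should lack Postn, 0 of 168 cells had a Postn UMI with or without thinning, which allows a share of cells with a captured Postn UMI of up to 1.79% and sets no limit on cells expressing it, at a median of 29263 to 61620 UMIs. Thinned shares in those cells and, later, in dorsal midbrain neurons were 0 to 9.60% for Hand1 and 0 to 4.55% for Postn, the highest Postn share being 1 of 22 cells at E8.5. Cells with neither a Hand1 nor a Postn UMI after thinning made up 0 to 2.14% of an E7.5 library, 2.63 to 10.6% of an E8.5 library, 18.97 to 31.6% of an E9.5 WT library and 8.16 to 29.5% of an E9.5 null library. Without thinning, the Postn share at E7.5 was 8.11 to 17.1%, at a median of 26557 to 55208 UMIs per cell.

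**Figure D2:**
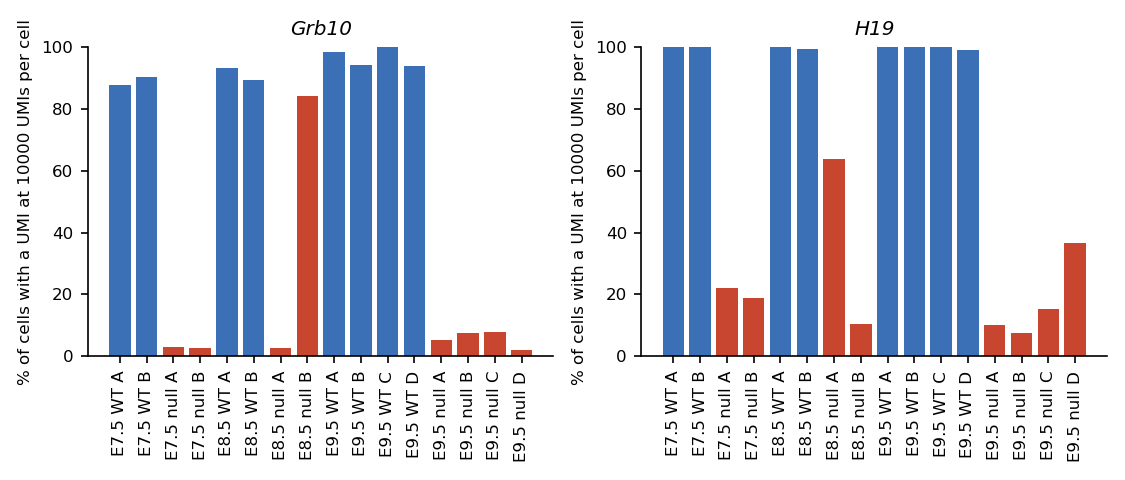
Percent of Mesenchyme cells with at least 1 UMI of each gene after thinning to 10000 UMIs per cell, as 1 bar per library, for WT and null. Grb10 and H19 are detected in 87.8% or more of WT cells in every library, and Grb10 is detected in 84.2% of the cells of E8.5 null B.

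The atlas stage to which a cell mapped split the Postn level within E8.5. E8.5 WT cells that mapped to E8.25 or earlier (70 cells) had 122 CPM of Postn, the 100 that mapped to E8.5 or E8.75 had 716 CPM, and the 92 that mapped to E9.0 or later had 488 CPM. Null cells at E8.5, pooled over null A and null B, gave 115, 685 and 542 CPM in the same order, from 32, 60 and 59 cells. Foxf1, a forkhead factor of splanchnic and extraembryonic mesoderm, ran the other way in WT cells, from 119 CPM in the earliest class to 52.1 and 38.5 CPM. These classes were cut from expression, so the values are a description.

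Among genes with a mean of at least 50 CPM in WT Mesenchyme, the 15 with the highest median log2 ratio over the other cells of the WT libraries were Prss35, Postn, Hand1, Col1a1, Pmp22, Dkk2, Ahnak, Wisp1, Acta2, Wnt2, Bmp2, Ccdc80, Tagln, Pitx1 and Tmem108. Postn, Hand1, Col1a1, Pmp22, Ahnak, Acta2 and Tagln are also markers of the label. The list joins smooth muscle genes (Acta2, Tagln), secreted signals (Bmp2, Wnt2), a secreted Wnt inhibitor (Dkk2) and a homeobox factor of the hindlimb field and lateral plate (Pitx1). Prss35 led with a median log2 ratio of 4.85, and in 1 library the ratio of Dkk2 was -0.13. Markers of other cells were also read in these cells. The keratins Krt8 and Krt18, which mark simple epithelia and are also found in early mesenchyme, put the summed level of 7 surface and amniotic ectoderm markers at 2093 to 3095 CPM in the E7.5 and E8.5 libraries and at 678 to 1083 CPM in those of E9.5. In the other cells of the libraries that sum was 165 to 1125 CPM.

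The share of each library that was Mesenchyme overlapped between the genotypes at E7.5 and E9.5, and at E8.5 the shares in null were lower than those in WT. At E7.5 the share of cells was 11.3 and 4.60% in WT and 6.45 and 10.3% in null. At E8.5 it was 4.01 and 4.18% in WT and 2.95 and 3.32% in null. At E9.5 it was 1.95, 2.57, 1.996 and 2.93% in WT and 1.80, 1.12, 3.26 and 3.17% in null. Exact 95% binomial intervals, which cover counting error only, ran from 9.12 to 13.9% for E7.5 WT A and from 3.67 to 5.68% for E7.5 WT B, so those 2 WT libraries differed by more than counting error. Group means were 7.97% ± 4.77 (SD, n = 2) in WT and 8.36% ± 2.71 in null at E7.5, 4.10% ± 0.123 and 3.13% ± 0.260 at the E8.5 stage, and 2.36% ± 0.475 (SD, n = 4) and 2.34% ± 1.05 at E9.5.

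Cell numbers per type were tested with edgeR over all types with enough cells. The log2 difference of null against WT for Mesenchyme was -0.26 (95% interval -1.70 to 1.18, adjusted p = 0.991) at E7.5, where 3 of 27 types (11.1%) passed. It was -0.40 (-0.96 to 0.15, adjusted p = 0.931) at E8.5, where 0 of 68 types passed, and -0.05 (-0.79 to 0.70, adjusted p = 0.996) at E9.5, where 1 of 71 (1.41%) passed. An exact two-sided permutation test of the E9.5 shares gave a difference of -0.0239 percentage points and p = 1. With 4 against 4 libraries the smallest p that test allows is 0.0286, and with 2 against 2 it is 0.333. The intervals leave room for sizeable differences in either direction at E7.5 and E9.5, most of all at E7.5. At E8.5 the interval leaves room for a sizeable fall in null.

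**Figure D3:**
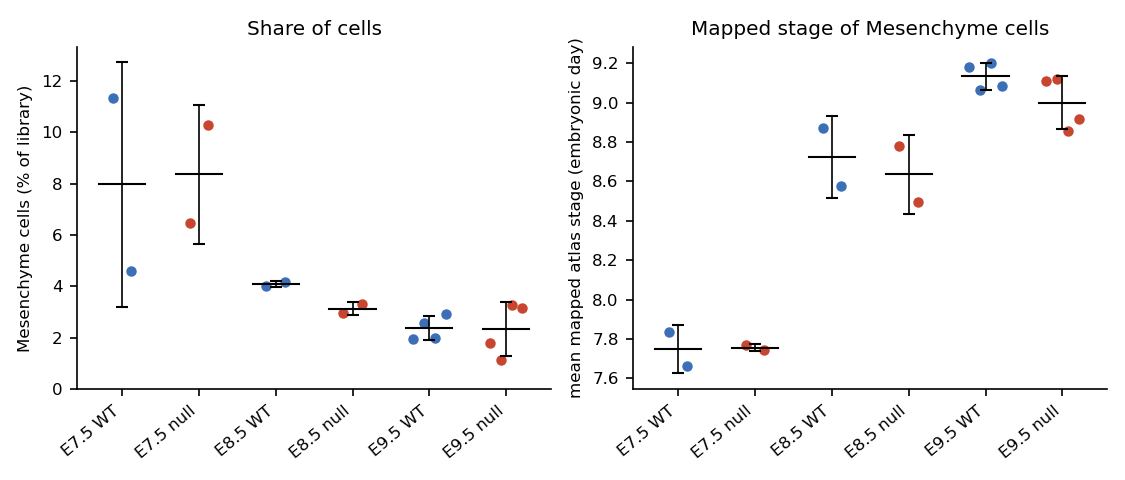
Mesenchyme share of each library's cells in percent, and the mean atlas stage in days to which its Mesenchyme cells mapped, with 1 point per library, the line at the group mean and the bar 1 SD. WT and null points overlap in share at E7.5 and E9.5, and the E8.5 null points lie under the E8.5 WT points.

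Developmental age of the cells was read as the mean atlas stage to which they mapped. It was 7.84 and 7.66 days in E7.5 WT and 7.77 and 7.74 days in E7.5 null, and 8.87 and 8.58 days in E8.5 WT against 8.78 and 8.49 days in E8.5 null. At E9.5 it was 9.18, 9.06, 9.20 and 9.08 days in WT and 9.11, 9.12, 8.86 and 8.92 days in null. The genotypes overlapped at every stage. Averaged over stages, null minus WT was -0.0706 days (exact two-sided permutation within stages, p = 0.312, Benjamini-Hochberg p = 0.520 over 5 per-cell measures). At E9.5 alone the difference was -0.133 days (exact permutation p = 0.171).

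The other per-cell measures did not pass correction either. The mean mapping score differed by 0.00146 (exact permutation p = 0.932), and the percent of mitochondrial reads by -0.000918 (exact permutation p = 0.995). Null cells held on average 7883 more UMIs (exact permutation p = 0.0357, Benjamini-Hochberg p = 0.151) and 440 more genes per cell (exact permutation p = 0.0603, Benjamini-Hochberg p = 0.151). The part of this depth difference in the results below was not tested, and levels are given as CPM.

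What changed in WT Mesenchyme between E8.5 and E9.5 was tested with edgeR on the UMI sums of 2 and 4 libraries. A gene was called when its Benjamini-Hochberg adjusted p was under 0.05 and its absolute log2 fold change was over 1. The test called 421 of 9900 genes (4.25%), of which 248 were higher (2.51%) and 173 lower (1.75%) at E9.5. DESeq2 called 314 genes and limma-voom 379. Without E8.5 WT B the count was 265, with 131 higher and 134 lower. Of the 248 genes called higher, 143 (57.7%) passed the low-count filter through the E9.5 libraries alone, and 32 of the 173 called lower (18.5%) through the E8.5 libraries alone, so the filter favoured their direction. Among all genes tested these shares were 10.4 and 0.626%. List counts and medians below hold such genes and are given as descriptions. The E8.5 libraries held about 4 embryos each and the E9.5 libraries about 1, so stage and the number of embryos per library cannot be told apart.

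The largest rises at E9.5 were of genes near 0 at E8.5, among them the transcription factor genes Bcl11a and Scx, the channel gene Kcna1 and the Wnt modulator Rspo2. All 7 genes of this paragraph passed the filter through E9.5 alone. Bcl11a, a zinc finger repressor, had 0 UMIs in E8.5 WT and 153 in E9.5 WT, at 29.2, 19.8, 15.6 and 13.2 CPM, so it was at least 37.3-fold higher (against a floor of 3 UMIs over the group). Kcna1, a potassium channel subunit, also had 0 UMIs at E8.5 and was at least 8.78-fold higher on 36 UMIs. Ccser1 and Rnf150 rose by a log2 fold change of 4.63 (SE 0.83, adjusted p = 0.000835) and 4.45 (SE 1.02, adjusted p = 0.00683), each from 1 UMI in the E8.5 WT libraries. Scx, the scleraxis factor of tendon progenitors, rose by 4.13 (SE 0.97, adjusted p = 0.00743), from 0.338 and 0 CPM to 7.30, 2.08, 4.25 and 3.22 CPM. It was not called without E8.5 WT B or by DESeq2. Rspo2, an R-spondin that strengthens Wnt signalling in the limb and lung, rose by 3.91 (SE 0.64, adjusted p = 0.000406). The long noncoding RNA Miat rose by 3.87 (SE 1.06, adjusted p = 0.0313), but the call was lost without E8.5 WT A, E8.5 WT B or E9.5 WT C and in limma-voom.

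Among the genes with the largest falls at E9.5 were Cdx4, Cfc1, Tnnc1 and Aplnr, which all passed the filter through E8.5 alone. Cdx4, a caudal homeobox factor of the posterior embryo, was at 12.8 and 9.16 CPM at E8.5 and at 0, 0.520, 0.709 and 0 CPM at E9.5 (log2 fold change -5.33, SE 0.61, adjusted p = 1.13e-05). Cfc1, the Nodal co-receptor cryptic, fell by 3.82 on the log2 scale (SE 0.52, adjusted p = 6.32e-05). The thin filament genes Tnnc1 and Tnnt2, which belong to the cardiac contractile apparatus, changed by -3.72 (SE 0.34, adjusted p = 1.40e-06) and -3.05 (SE 0.39, adjusted p = 0.00461). Tnnt2 was at 53.7 and 118 CPM at E8.5 and at 7.79 to 14.2 CPM at E9.5. The summed level of 7 cardiomyocyte markers was 86.1 to 183 CPM in E8.5 WT Mesenchyme and 28.6 to 69.4 CPM in E9.5 WT, and Tnnt2, itself 1 of the 7, made up most of the E8.5 sums. The part of this cell type in these values was not tested. Ttn, another of these markers, differed by 0.08 (SE 0.35, adjusted p = 0.914). Aplnr, the apelin receptor of early mesoderm, changed by -3.64 (SE 0.62, adjusted p = 0.000629), and Plac8 by -3.06 (SE 0.14, adjusted p = 2.07e-11), from 185 and 218 CPM to 20.2 to 31.5 CPM. Gas6, a ligand of the TAM receptor kinases, changed by -3.05 (SE 0.26, adjusted p = 9.66e-06). Car4, a membrane-bound carbonic anhydrase, changed by -3.27 (SE 0.38, adjusted p = 0.00915), and its call was lost without E8.5 WT B.

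Hox genes, which give cells their position along the body axis by the order of their paralog groups in 4 clusters, were listed after the other gene lists had been set. Their genes were named after the values were seen. WT Mesenchyme gave 32 testable genes of the 39 listed. At E9.5 14 of them were called higher and 3 lower, against 2.51% higher and 1.75% lower of all genes. Of the 14, Hoxa10, Hoxa11, Hoxa13, Hoxc10, Hoxd10, Hoxd11 and Hoxd13 passed the filter through E9.5 alone, so no count or median by paralog group is given. Hoxa2, Hoxa7, Hoxa9, Hoxb9, Hoxc5, Hoxc6 and Hoxc8 reached it at both stages. Hoxd11 was at 0.338 and 0 CPM at E8.5 and at 6.17, 7.80, 9.92 and 7.40 CPM at E9.5 (log2 fold change 5.04, SE 0.73, adjusted p = 0.000124).

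Hoxa9 rose from 10.1 and 6.87 CPM to 53.3, 46.3, 51.0 and 37.6 CPM (2.32, SE 0.22, adjusted p = 1.48e-06), and Hoxa10 from 3.71 and 3.27 CPM to 18.5, 25.0, 16.3 and 15.8 CPM (2.29, SE 0.31, adjusted p = 6.96e-05). Hoxb9 rose from 32.1 and 13.7 CPM to 78.6, 70.2, 85.7 and 74.3 CPM (1.63, SE 0.25, adjusted p = 0.00154). No E8.5 WT library reached any E9.5 WT library in these genes, as in 3636 of all 9900 genes (36.7% did not overlap). The 3 lower genes were Hoxb1 (-2.65, SE 0.52, adjusted p = 0.0200), Hoxd1 (-1.36, SE 0.33, adjusted p = 0.00956) and Hoxb6 (-1.23, SE 0.14, adjusted p = 1.25e-05). Hoxb6 went from 64.8 and 62.5 CPM to 34.2, 29.1, 25.5 and 28.6 CPM, whereas Hoxc6, of the same paralog group, rose from 16.2 and 11.1 CPM to 43.2, 43.7, 43.9 and 29.0 CPM (1.39, SE 0.22, adjusted p = 0.000321).

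**Figure D4:**
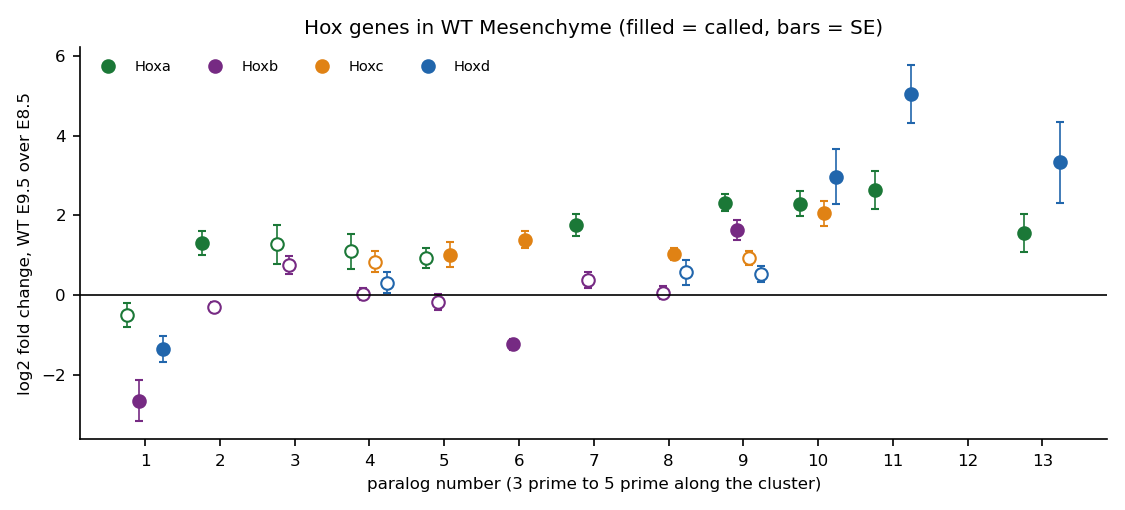
Log2 fold change of each tested Hox gene in WT Mesenchyme, E9.5 minus E8.5, by paralog group and coloured by cluster, with bars of 1 SE and filled points for called genes. Hoxa9 lies at 2.32 and Hoxb6 at -1.23, and the called genes of paralog groups 10 to 13 passed the low-count filter through E9.5 alone.

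Other transcription factors of mesenchyme followed. Of 29 tested, 4 were higher and 1 lower (median 0.22). Counts of this kind in the following lists stand against 2.51% higher, 1.75% lower and 4.25% called either way over all genes. Isl1, a LIM homeobox factor of heart and hindlimb progenitors, rose from 4.05 and 5.56 CPM to 23.6, 42.1, 21.3 and 39.9 CPM (2.63, SE 0.33, adjusted p = 0.000124), and passed the filter through E9.5 alone. Tbx2, a T-box repressor, rose by 1.33 (SE 0.24, adjusted p = 0.000792), and Nr2f1, an orphan nuclear receptor, by 1.22 (SE 0.22, adjusted p = 0.00113). Gata4, a zinc finger factor of heart and endoderm, changed by -1.10 (SE 0.28, adjusted p = 0.0129), and was not called without E8.5 WT A, E8.5 WT B or E9.5 WT B, nor by DESeq2. Hand1 itself changed by -0.75 (SE 0.09, adjusted p = 1.71e-05), under the fold threshold, and Postn by 0.14 (SE 0.42, adjusted p = 0.879).

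Markers of other cell types moved with stage in WT Mesenchyme as well. The 5 markers of limb and pharyngeal mesoderm, Isl1 among them, summed to 99.8 to 110 CPM at E8.5 and 133 to 219 CPM at E9.5, and 5 neural crest markers to 232 to 247 CPM and 505 to 587 CPM. Crabp1 alone made up most of each neural crest sum, and Sox10, Foxd3 and Tfap2b had 0 to 11 UMIs in each of these WT libraries. The 5 allantois markers, which hold Hoxa10, Hoxa11, Hoxa13 and Cdx4, summed to 20.6 to 22.3 CPM and 33.5 to 57.2 CPM. Endothelial markers summed to 86.1 to 96.9 CPM at E8.5 and 29.1 to 58.2 CPM at E9.5, and blood markers to 1037 to 1315 CPM and 218 to 934 CPM. Kdr and Tek made up most of each endothelial sum. Cdh5, Tie1, Emcn and Esam had 0 to 2 UMIs in each of these WT libraries. None of these sums overlapped between the stages, as in 36.7% of all single genes. The extraembryonic ectoderm sum did not overlap either, at 20.9 to 21.9 CPM and 4.25 to 14.6 CPM. The sums of mesothelium, neural, paraxial mesoderm and extraembryonic endoderm markers did overlap. The part of all these markers in the stage values was not tested.

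Among 28 secreted signals tested, 4 were higher and 3 lower (median 0.23). Igf1, the insulin-like growth factor, rose from 1.01 and 1.31 CPM to 21.9, 8.84, 17.0 and 9.33 CPM (3.38, SE 0.52, adjusted p = 0.000326), and Tgfb3 by 3.33 (SE 0.62, adjusted p = 0.00112), both through the filter by E9.5 alone. Ptn, the heparin-binding growth factor pleiotrophin, rose from 248 and 175 CPM to 1533, 1017, 1435 and 916 CPM (2.41, SE 0.33, adjusted p = 0.0154). Its call was lost without E8.5 WT A or E8.5 WT B, although all 4 E9.5 libraries lay above both E8.5 libraries. The Wnt agonist Rspo3 (-1.98, SE 0.27, adjusted p = 0.00198), Wnt11 (-1.25, SE 0.31, adjusted p = 0.0124) and the growth factor Pdgfa (-1.07, SE 0.31, adjusted p = 0.0415) were lower. Wnt11 lost its call without E8.5 WT A, and Pdgfa without E8.5 WT B, E9.5 WT B, E9.5 WT C or E9.5 WT D. Of 25 BMP pathway genes, 1 was called, a share near the 4.25% of all genes, the ligand Bmp2, at 137 and 99.8 CPM at E8.5 and 44.3, 30.7, 35.4 and 64.0 CPM at E9.5 (-1.51, SE 0.27, adjusted p = 0.0136). That call was lost without E8.5 WT A.

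Of 33 receptors tested, the ephrin receptors Epha3 (3.03, SE 0.44, adjusted p = 0.000162) and Epha7 (1.90, SE 0.31, adjusted p = 0.000327) were higher, Epha3 having passed the filter through E9.5 alone. Itga4, the integrin subunit that binds fibronectin and VCAM1, was lower (-1.25, SE 0.30, adjusted p = 0.0166), but not without E8.5 WT B or E9.5 WT D. Of 31 STAT3 pathway genes tested, 1 was called, also a share near that of all genes. It was Cntfr, the ligand-binding receptor of ciliary neurotrophic factor. It rose from 10.1 and 7.85 CPM to 21.3, 33.8, 31.9 and 23.2 CPM (1.47, SE 0.25, adjusted p = 0.000519).

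Of 35 matrix genes, 1 was called higher and 2 lower (median 0.04), against 2.51 and 1.75% of all genes. Col6a3, which passed the filter through E9.5 alone, rose by 1.15 (SE 0.35, adjusted p = 0.0379), a call lost without E8.5 WT B, E9.5 WT A, E9.5 WT B or E9.5 WT D and in DESeq2. Lama4, a laminin chain of vessel and muscle basement membranes, changed by -1.59 (SE 0.24, adjusted p = 0.000206), and Hapln1, which links hyaluronan to proteoglycan, by -1.11 (SE 0.15, adjusted p = 5.62e-05).

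Of 31 contractile and cytoskeletal genes, 0 were called higher and 5 lower, against 1.75% lower of all genes, and the other 26 did not pass (median -0.53). Krt18 went from 931 and 1025 CPM to 413, 329, 269 and 368 CPM (-1.62, SE 0.13, adjusted p = 7.55e-06), and Krt8 changed by -1.36 (SE 0.20, adjusted p = 0.00953), with its call lost without either E8.5 library.

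Of 27 genes of glycolysis and the response to low oxygen, 0 were called higher and 5 lower, against the same 1.75%, and the other 22 did not pass (median -0.58). Slc2a3, a glucose transporter, went from 434 and 497 CPM to 41.5, 65.5, 71.6 and 79.5 CPM (-2.95, SE 0.18, adjusted p = 2.61e-05), and Slc2a1, another glucose transporter, from 912 and 971 CPM to 208, 179, 162 and 305 CPM (-2.24, SE 0.26, adjusted p = 0.00697). Pfkp, the platelet-type phosphofructokinase, changed by -1.81 (SE 0.27, adjusted p = 0.000219). The Slc2a1 call was lost without E8.5 WT A or E8.5 WT B. Of 33 imprinted genes tested 2 were called, Phlda2, a repressor of placental growth (-2.69, SE 0.45, adjusted p = 0.0313), and Snrpn, a splicing protein gene (-1.35, SE 0.19, adjusted p = 0.000571). Phlda2 lost its call without E8.5 WT A, E8.5 WT B, E9.5 WT A, E9.5 WT C or E9.5 WT D. Of 16 p53 targets, 1 was called, the death receptor gene Fas (1.37, SE 0.30, adjusted p = 0.00515), which passed the filter through E9.5 alone and lost its call without E8.5 WT B. Of 36 cell cycle genes and of 11 interferon and MHC class I genes 0 were called by edgeR, with 9 and 5 at an unadjusted p under 0.05, which 26.3% of all genes reached. DESeq2 and limma-voom calls were not counted by list.

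The question that the chimeras address is how null cells fare beside WT cells in the same embryos, and the targeted gene was examined first. Stat3 was at 6.61 and 5.92 CPM in E7.5 WT Mesenchyme and at 0.683 and 0.491 CPM in E7.5 null. It was at 3.71 and 3.60 CPM in E8.5 WT and 1.34 and 1.80 CPM in E8.5 null, and at 7.30, 8.32, 4.25 and 8.37 CPM in E9.5 WT and 3.95, 1.87, 1.87 and 3.303 CPM in E9.5 null. No null library reached a WT library of the same stage. The mean of the 3 stage differences was -4.03 CPM (exact two-sided permutation test with labels exchanged inside each stage, p = 0.000794, which is as low as 2520 arrangements can give). The deletion is internal and 3′ tags fall downstream of it, so the level checks the labels and does not itself show the deletion. Stat3 rests on 5 to 61 UMIs per group and was too low for the gene-wise fit at E9.5.

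At E7.5, 13 of 9183 genes (0.142%) were called between null and WT Mesenchyme, 5 higher (0.0544%) and 8 lower (0.0871%) in null. Among them were 3 imprinted genes, a class expressed mainly from the copy of 1 parent. Grb10, an adaptor that restrains growth factor receptor signalling, was at 313 and 259 CPM in WT and 6.14 and 5.90 CPM in null (log2 fold change -5.52, SE 0.19, adjusted p = 1.31e-11). H19, a noncoding RNA that shares an imprinting control region with Igf2, was at 1278 and 997 CPM in WT and 142 and 107 CPM in null (-3.13, SE 0.16, adjusted p = 4.92e-07). Igf2, the fetal insulin-like growth factor, was at 371 and 351 CPM in WT and 769 and 684 CPM in null (1.05, SE 0.11, adjusted p = 9.96e-05), and was not called without E7.5 null A. Of 33 imprinted genes tested, 1 was thus higher and 2 lower, with a list median of -0.08 against -0.00459 over all genes. A fit of all stages and genotypes together did not call these 3 genes, although the fold changes were -5.51 for Grb10, -3.13 for H19 and 1.055 for Igf2 (adjusted p = 0.454, 0.901 and 0.147).

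The other genes higher in E7.5 null were the histone genes, of a family of near-identical copies whose reads may be split, Hist1h2ae (1.50, SE 0.15, adjusted p = 5.61e-05) and Hist1h4d (1.37, SE 0.18, adjusted p = 0.00106), Thg1l, a transfer RNA guanylyltransferase (1.37, SE 0.21, adjusted p = 0.00681), and the zinc finger gene Zfp990 (1.55, SE 0.29, adjusted p = 0.0364). Hist1h2ae was at 86.0 and 77.8 CPM in WT and 256 and 194 CPM in null. Hist1h2ae, Hist1h4d and, among the genes lower, Rhox5 were also not called in the fit of all groups. Zfp990 was not called without E7.5 WT A or E7.5 WT B, nor by DESeq2 or limma-voom.

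The other genes lower were Pusl1, a pseudouridine synthase-like gene, at 41.9 and 48.7 CPM in WT and 8.87 and 12.3 CPM in null (-2.13, SE 0.23, adjusted p = 0.000139), Stat3 (-3.22, SE 0.58, adjusted p = 0.0279), Akr1e1, an aldo-keto reductase (-2.44, SE 0.47, adjusted p = 0.0396), Rhox5, a reproductive homeobox gene (-2.69, SE 0.49, adjusted p = 0.0306), and Ttr and Apoa1. Ttr and Apoa1 encode secreted plasma carriers typical of yolk sac endoderm. Apoa1 had 32 UMIs in WT and 0 in null, at least 15.2-fold lower (against the same floor of 3 UMIs), and Ttr had 44 and 5 UMIs (-3.56, SE 0.61, adjusted p = 0.0165). The summed level of 7 extraembryonic endoderm markers was 22.4 to 39.3 CPM in E7.5 WT Mesenchyme and 5.29 to 7.86 CPM in null. Ttr and Apoa1 are themselves among the 7, so their own fall lowers the sum in null. Apoa1, Amn, Cubn and Apoa4 were at 0 in null, and Apoa4 was at 0 in WT as well. In the other cells of those libraries the sum was 572 to 629 CPM in WT and 7.45 to 12.3 CPM in null, and its part in the Ttr and Apoa1 values was not tested. Rhox5 is itself 1 of 7 extraembryonic ectoderm markers, whose sum was 100 to 118 CPM in E7.5 WT Mesenchyme and 76.6 to 139 CPM in null. Cdx2 alone made up most of each of these Mesenchyme sums, at 332 and 187 UMIs in WT and 425 and 270 UMIs in null. Rhox5 had 23 and 33 UMIs in WT and 8 and 4 UMIs in null, so the sums say little about the markers other than Cdx2. In the other cells that sum was 363 to 637 CPM in WT and 71.2 to 118 CPM in null, and its part in the Rhox5 value was not tested. Stat3, Ttr, Apoa1, Rhox5 and Akr1e1 passed the low-count filter through the E7.5 WT libraries alone, so the filter favoured their direction. Apoa1 was too low to be tested without E7.5 WT B. Stat3, Ttr, Rhox5 and Akr1e1 were each not called by DESeq2 or limma-voom. Stat3 lost its call without E7.5 WT A, E7.5 WT B or E7.5 null A, and the other 3 without E7.5 WT B or E7.5 null A. Leaving out 1 library gave counts of 20 without E7.5 WT A, 20 without E7.5 WT B, 35 without E7.5 null A and 29 without E7.5 null B.

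Of the lists fixed for mesenchyme, STAT3 signalling and cell state, only those of imprinted genes, secreted signals (Igf2) and the STAT3 pathway (Stat3 itself) held a called gene at E7.5. The matrix list had 0 of 28 genes called and a median of -0.11. Its nearest members were Col1a1, at 140 and 89.7 CPM in WT and 58.0 and 55.5 CPM in null (-0.99, SE 0.19, adjusted p = 0.0856), and Hapln1, at 74.0 and 58.8 CPM in WT and 39.4 and 35.4 CPM in null (-0.78, SE 0.18, adjusted p = 0.102). Col1a1 was called without E7.5 WT B or without E7.5 null A, fits in which the lone library of a genotype is assumed to vary like the libraries of the other. The libraries of the genotypes did not overlap in either gene, as in 3008 of all genes tested (32.8%, either direction). Twist1, a basic helix-loop-helix factor of mesenchyme, was at 22.0 and 21.6 CPM in WT and 11.8 and 8.84 CPM in null (-0.99, SE 0.25, adjusted p = 0.251). Cdkn1a, the p21 inhibitor of the cell cycle and a p53 target, was at 2.83 and 2.96 CPM in WT and 8.36 and 6.39 CPM in null (1.43, SE 0.42, adjusted p = 0.501).

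At E8.5, 0 of 9618 genes were called by edgeR, with 369 (3.84%) at an unadjusted p under 0.05. DESeq2 and limma-voom also called 0, with 68 and 371 at an unadjusted p under 0.05. The null libraries disagreed with each other. Grb10 was at 340 and 320 CPM in E8.5 WT, 7.04 CPM in E8.5 null A and 232 CPM in E8.5 null B. H19 was at 1836 and 1391 CPM in WT, 827 CPM in null A and 81.1 CPM in null B. The Grb10 level of null B lay near WT and its H19 level was the lowest, whereas null A had almost no Grb10 and an intermediate H19 level. Slc38a4, an imprinted amino acid transporter gene, was higher in both null libraries, at 278 and 290 CPM against 150 and 141 CPM (0.98, SE 0.12, adjusted p = 0.0120), just under the fold threshold, and gave 0.92 (SE 0.15, adjusted p = 5.91e-07) without null B. H19 gave -1.78 (SE 1.36, adjusted p = 1.000) with both and -0.98 (SE 0.13, adjusted p = 7.89e-10) without null B. H2-K1, a classical MHC class I gene, was at 15.5 and 15.1 CPM in WT and 6.03 and 1.80 CPM in null (-1.67, SE 0.38, adjusted p = 0.305), and was called without E8.5 null A but not without E8.5 null B. In these fits 1 null library is left, which is assumed to vary like the WT libraries.

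Without E8.5 null B, 26 genes were called, of which those named here were chosen after their values were seen, and E8.5 null A was then assumed to vary like the WT libraries. Grb10 changed by -5.56 (SE 0.24, adjusted p = 8.81e-109), Pusl1 by -1.70 (SE 0.33, adjusted p = 0.000125), Akr1e1 by -1.49 (SE 0.33, adjusted p = 0.00230) and Hist1h4i, a histone gene, by -1.70 (SE 0.28, adjusted p = 1.80e-06). Zdbf2, an imprinted gene, changed by 1.22 (SE 0.15, adjusted p = 4.48e-12). Without E8.5 null A the count was 73, without E8.5 WT A 1 and without E8.5 WT B 2.

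At E9.5, where each genotype had 4 libraries, 8 of 9198 genes (0.0870%) were called, 3 higher (0.0326%) and 5 lower (0.0544%) in null. DESeq2 called 8 genes, 6 of them shared with edgeR, and limma-voom 7, all shared. The clearest was Cwc22, a spliceosome factor that also loads the exon junction complex. Its chromosomal segment varies in copy number among mice, and the deposited counts may join reads of several copies. It was at 28.6, 41.1, 39.7 and 43.1 CPM in WT and at 172, 153, 211 and 144 CPM in null (log2 fold change 2.14, SE 0.14, adjusted p = 1.85e-08), and it was called under each alternative fit. At E7.5 and E8.5 the same contrast of Cwc22 gave 0.59 (SE 0.21, adjusted p = 0.881) and 0.64 (SE 0.19, adjusted p = 0.886).

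Mef2c, a MADS-box factor of heart, muscle and vessels, was at 5.05, 6.24, 5.67 and 7.08 CPM in WT and 14.5, 14.9, 14.3 and 15.1 CPM in null (1.25, SE 0.24, adjusted p = 0.0239). Its libraries did not overlap, as in 3.58% of all genes, but DESeq2 gave an adjusted p of 0.0903, and the call was lost without E9.5 WT A, WT B or WT C and without E9.5 null A, null C or null D, at adjusted p = 0.0619 to 0.0905. Over all alternatives its adjusted p ran from 0.00455 to 0.224. The summed level of the cardiomyocyte markers was 28.6 to 69.4 CPM in E9.5 WT Mesenchyme and 40.2 to 107 CPM in null, and its part in the Mef2c value was not tested. Ddc, which encodes the aromatic amino acid decarboxylase and lies beside Grb10, was at 21.3, 18.2, 18.4 and 13.8 CPM in WT and 38.6, 29.0, 38.7 and 34.0 CPM in null (1.01, SE 0.17, adjusted p = 0.00509). Its fold change lay under the threshold without E9.5 WT D, E9.5 null A or E9.5 null C, at 0.88 to 0.97. Ddc spans chr11:11814101-11898144 and Grb10 chr11:11930508-12038683 in GRCm38, the build of the deposited counts.

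Grb10 was at 407, 466, 456 and 401 CPM in E9.5 WT and 29.0, 15.9, 8.73 and 0.944 CPM in null (-4.96, SE 0.49, adjusted p = 0.0266). Null libraries differed among themselves by a wide margin on the log scale, and limma-voom gave an adjusted p of 0.122. The call was also lost without any 1 of the E9.5 WT libraries, without E9.5 null B and without E9.5 null C (adjusted p = 0.0718 to 0.160), while the log2 fold change stayed between -5.92 and -4.50 whichever library was left out. Akr1e1 was at 20.8, 17.2, 27.6 and 19.3 CPM in WT and 6.59, 1.87, 6.23 and 4.72 CPM in null (-1.995, SE 0.27, adjusted p = 0.000470). Pusl1 was at 18.5, 13.5, 27.6 and 28.3 CPM in WT and 4.83, 7.47, 6.23 and 8.97 CPM in null (-1.70, SE 0.28, adjusted p = 0.00459). Both stayed called whichever library was left out. Hist1h4i was at 25.3, 29.1, 44.6 and 48.3 CPM in WT and 12.7, 11.2, 11.8 and 10.4 CPM in null (-1.69, SE 0.22, adjusted p = 0.000470). Sft2d1, a gene of vesicle transport, was at 6.74, 10.9, 6.38 and 9.65 CPM in WT and 1.32, 2.80, 1.87 and 2.83 CPM in null (-1.99, SE 0.37, adjusted p = 0.0194), and was not called by DESeq2 or without E9.5 WT B, E9.5 WT D, E9.5 null A or E9.5 null C. The count of called genes was 5 without E9.5 WT B and 4 without E9.5 null C. It was 12 without E9.5 null B. Grb10, Akr1e1, Pusl1 and Sft2d1 passed the low-count filter through the E9.5 WT libraries alone, and Mef2c through the E9.5 null libraries alone. The filter thus favoured the direction of these calls.

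**Figure D5:**
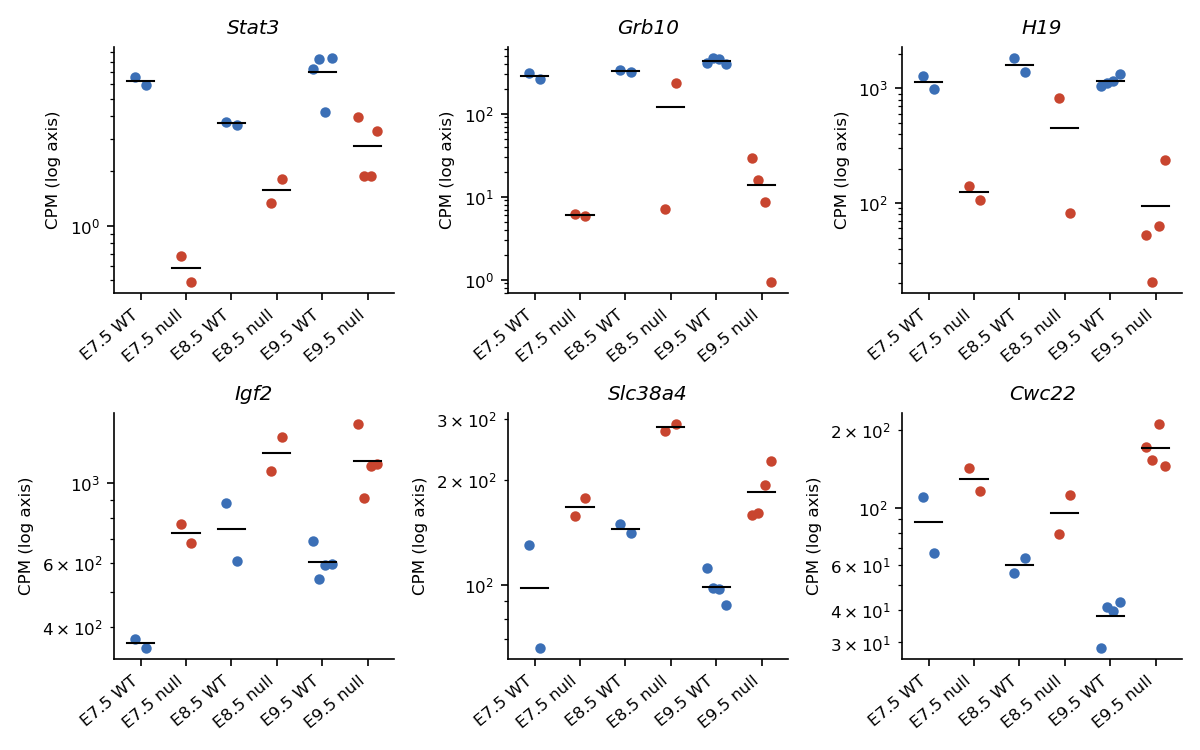
Levels of Stat3, Grb10, H19, Igf2, Slc38a4 and Cwc22, in CPM on a log axis, by library and stage, with 1 point per library and the line at the group mean. Cwc22 lies at 28.6 to 43.1 CPM in E9.5 WT and at 144 to 211 CPM in E9.5 null, and the Grb10 point of E8.5 null B, at 232 CPM, lies near the WT points.

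Of 33 imprinted genes tested at E9.5, Grb10 alone passed both thresholds. An unadjusted p under 0.05 was reached by 12 of these 33, against 6.18% of all genes. Of 29 Hox genes tested at E9.5, 4 reached it and 0 were called. Igf2 was at 691, 542, 595 and 597 CPM in WT and 1454, 908, 1114 and 1126 CPM in null (0.92, SE 0.12, adjusted p = 0.00515), and Slc38a4 at 112, 97.7, 97.1 and 87.5 CPM in WT and 159, 161, 194 and 227 CPM in null (0.92, SE 0.12, adjusted p = 0.000258). Both passed the adjusted p and stayed under the fold threshold. H19 was at 1042, 1123, 1162 and 1325 CPM in WT and at 52.3, 20.6, 63.0 and 238 CPM in null, which did not overlap, yet its adjusted p was 0.234 (log2 fold change -3.56, SE 0.64). Among null libraries H19 was lowest in E9.5 null B and highest in E9.5 null D.

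The same genes were counted in single cells. After thinning to 10000 UMIs, Grb10 was found in 87.8 to 100% of WT Mesenchyme cells of a library and in 2.04 to 7.69% of null cells in 7 of the 8 null libraries. In E8.5 null B it was found in 84.2% of cells. H19 was found in 99.1 to 100% of WT cells, in 63.7% of E8.5 null A cells, in 36.7% of E9.5 null D cells, and in 7.41 to 22.1% of the cells of the other null libraries. In E9.5 dorsal midbrain neurons thinned in the same way the shares were 90.9 to 94.5% of WT and 5.26 to 11.1% of null cells for Grb10, and 41.6 to 75.3% of WT and 2.78 to 12.6% of null cells for H19. No cell type lacking both genes was examined, so low shares in null are not told apart from free RNA here.

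Cells of the null libraries without a tdTomato UMI, of which a library had 0 to 8, were compared with the cells that had one. Summed over such cells Grb10 was at 71.6 to 398 CPM and H19 at 385 to 1619 CPM in the 7 libraries that had any. In tdTomato-positive cells of the same libraries Grb10 was at 0.509 to 18.9 CPM, except in E8.5 null B, where it was 235 CPM against 222 CPM in that library's cells without tdTomato. H19 in the tdTomato-positive cells was at 5.83 to 792 CPM, below the cells without tdTomato of the same library in each of the 7. With the tdTomato-lacking cells left out, Grb10 at E9.5 changed by -5.86 (adjusted p = 0.00966).

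The lists fixed for mesenchyme gave few genotype calls. At E9.5, 0 genes were called by edgeR among 28 mesenchyme transcription factors, 34 matrix genes, 29 contractile genes, 25 STAT3 pathway genes, 24 BMP pathway genes, 28 secreted signals, 33 receptors, 36 cell cycle genes, 13 p53 targets, 9 interferon and MHC class I genes, and 26 glycolysis and hypoxia genes. List medians lay between -0.13 (contractile genes) and 0.11 (glycolysis and hypoxia), against 0.00251 over all genes. At an unadjusted p under 0.05, which 6.18% of all genes reached, they numbered 2, 1, 3, 1, 1, 6, 2, 4, 2, 3 and 5 in the same order.

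Apart from Igf2, a secreted signal given above with the imprinted genes, the members of these lists with the lowest adjusted p were Ccnd1, Wnt2 and Bmp4. Ccnd1, the cyclin of the G1 phase, was at 123, 130, 133 and 125 CPM in WT and 159, 158, 192 and 183 CPM in null (0.43, SE 0.09, adjusted p = 0.0600). Bmp4, a BMP ligand of extraembryonic and lateral mesoderm, was at 173, 164, 204 and 171 CPM in WT and 139, 109, 138 and 139 CPM in null (-0.42, SE 0.10, adjusted p = 0.121). Wnt2, a Wnt ligand of lung and heart mesenchyme, was at 208, 181, 184 and 168 CPM in WT and 146, 160, 117 and 124 CPM in null (-0.44, SE 0.10, adjusted p = 0.118). The libraries of the genotypes did not overlap in any of the 3, as in 329 of all 9198 genes (3.58%). Socs3, a direct target of STAT3 and its feedback inhibitor, was at 22.5, 12.996, 13.5 and 14.8 CPM in WT and 7.03, 7.47, 13.1 and 16.5 CPM in null, which overlapped (-0.49, SE 0.27, adjusted p = 0.846).

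Among p53 targets the pair nearest to a call were Ccng1, a cyclin G gene, and Fas. Ccng1 was at 7.30, 12.996, 13.5 and 15.1 CPM in E9.5 WT and 29.4, 16.8, 24.3 and 22.2 CPM in null (0.93, SE 0.22, adjusted p = 0.139), and was called without E9.5 null B. Fas was at 24.7, 21.3, 21.3 and 18.3 CPM in WT and 32.1, 29.0, 32.4 and 29.3 CPM in null (0.54, SE 0.16, adjusted p = 0.302). In neither gene did the libraries of the genotypes overlap, as in 3.58% of all genes, and neither was called with all libraries. The interferon-induced membrane protein genes Ifitm1 (-0.48, SE 0.13, adjusted p = 0.227) and Ifitm2 (-0.27, SE 0.08, adjusted p = 0.372) and the smooth muscle relative Tagln2 (0.65, SE 0.17, adjusted p = 0.275) did not pass either.

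Hand1, Postn, Col1a1 and Acta2, 4 of the markers of the label, were not called between the genotypes at E9.5, whereas the libraries did not overlap in Bmp4, another of the markers, given above. Hand1 differed by 0.06 (SE 0.11, adjusted p = 0.984), Postn by -0.02 (SE 0.40, adjusted p = 1.000), Col1a1 by -0.03 (SE 0.27, adjusted p = 1.000) and Acta2 by -0.29 (SE 0.39, adjusted p = 0.976). The label was assigned from expression, so null cells with changed markers may carry another label. These marker values are a description of the labelled cells. Signal of 11 blood markers moved with genotype, at 218 to 934 CPM in E9.5 WT Mesenchyme and 8.41 to 96.7 CPM in null. In the other cells of those libraries the blood sum was 5831 to 18140 CPM in WT and 273 to 713 CPM in null. Haemoglobin genes were left out of the gene-wise tests, and the part of this signal in the results was not tested.

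Promoters of the E9.5 genes were searched for the canonical STAT motif, TTCNNNGAA on either strand, from 250 bases before to 50 after each RefSeq start site in GRCm38.p6. Over all promoters searched, 2726 of 32851 (8.30%) held it. Of the 8 genes called, 7 matched a promoter entry. Grb10, Ddc and Mef2c matched more than 1, so a share of these genes does not compare with that 8.30% of promoters. The motif was in 1 promoter, 1 of the 3 of Mef2c, a gene higher in null. The site is shown because it was the only match, with the motif in capitals. The printed letters lie on the plus strand at chr13:83503867-83503895, and the motif within them starts at position -157 from the start site.
Mef2c: tccaagattaTTCTTGGAAatgtaatttt
The 2 promoters of Grb10 and those of Akr1e1, Pusl1, Sft2d1, Cwc22 and Ddc did not hold these letters in this window.

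Whether the genotype difference changed with stage was tested by the interaction of genotype and stage at E8.5 and E9.5. By edgeR 0 of 9977 genes were called, with 248 at an unadjusted p under 0.05, and DESeq2 called 1, with 98. Without E8.5 null A the count was 6, and without E8.5 null B it was 1. That a gene such as Cwc22 passed at E9.5 and not at E8.5 does not show that its genotype difference changed with stage.

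Likeness to Mesenchyme in E9.5 WT was ranked only among cell types with more than 15 cells in every E9.5 library. Types with fewer cells were not compared. The highest ranked were the embryo proper mesothelium (Pearson r = 0.938 over 9198 genes, which are not independent replicates) and limb mesoderm (r = 0.924). Both share libraries and depth with Mesenchyme. The mesothelium, the lining of the body cavities, held 450 cells over all stages, of which 194 WT and 143 null cells were at E9.5. Limb mesoderm held 1767 over all stages, with 815 WT and 697 null cells at E9.5. Hand1 was at 261 to 320 CPM in E9.5 WT Mesenchyme, 112 to 187 CPM in mesothelium and 28.4 to 36.0 CPM in limb mesoderm. Postn separated the 3 more widely, at 415 to 743 CPM, 11.7 to 57.3 CPM and 6.90 to 13.4 CPM in the same order.

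In mesothelium 10 of 8606 genes were called between the genotypes, and in limb mesoderm 15 of 10584. Of the 8 genes called in Mesenchyme, Cwc22, Grb10, Pusl1 and Hist1h4i were also called in both like types. Akr1e1 was called in mesothelium (-3.31, SE 0.43, adjusted p = 4.72e-05) and not in limb mesoderm (-2.05, SE 0.42, adjusted p = 0.162). Cwc22 changed by 2.30 in mesothelium (SE 0.11, adjusted p = 3.28e-15) and 2.03 in limb mesoderm (SE 0.06, adjusted p = 3.71e-12), and Grb10 by -4.14 (SE 0.47, adjusted p = 0.0355) and -5.79 (SE 0.24, adjusted p = 2.24e-05). Mef2c gave -0.15 in mesothelium (SE 0.45, adjusted p = 0.978) and -0.05 in limb mesoderm (SE 0.14, adjusted p = 0.986), and the difference between Mesenchyme and each type was not called (1.30, SE 0.42, adjusted p = 1.000 and 1.28, SE 0.27, adjusted p = 0.248).

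A test of the difference itself called 1 of 9395 genes (0.0106%) against mesothelium and 1 of 10659 (0.00938%) against limb mesoderm. Igfbp3, which binds insulin-like growth factors, was at 39.3, 17.7, 17.0 and 19.9 CPM in WT Mesenchyme and 9.22, 1.87, 8.73 and 8.49 CPM in null Mesenchyme. Its Mesenchyme libraries did not overlap, as in 3.58% of all genes, but Igfbp3 was not among the 8 genes called there at E9.5. In mesothelium it was at 22.7, 26.4, 19.9 and 15.8 CPM in WT and 23.6, 17.2, 28.8 and 33.1 CPM in null. Its genotype difference was lower in Mesenchyme by 1.99 on the log2 scale (difference -1.99, SE 0.33, adjusted p = 0.00797). The call was lost without E9.5 WT A, E9.5 WT D, E9.5 null C or E9.5 null D, at adjusted p = 0.0634 to 0.147. Limb mesoderm was also lower in null, at 2.56 to 3.86 CPM against 6.90 to 12.3 CPM in WT.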

How the data were processed

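The authors deposited a matrix of UMI counts per gene and cell, made from droplet 3′ libraries with Cell Ranger against mm10 with a tdTomato sequence added, and a cell table with quality, doublet and transferred atlas labels. In that deposited table the mitochondrial content is a percent and the label mapping score a fraction, both computed by the authors per cell. The matrix held 41832 cells, of which 3395 doublets and 596 WT-sorted singlets with a tdTomato UMI were left out. Among the latter were 5 Mesenchyme cells.

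Mesenchyme counts were summed per library (minimum over 15 cells), and CPM are counts scaled by each library's Mesenchyme total. Sums were tested with edgeR 4.0.16 (quasi-likelihood, robust, TMM, filterByExpr), with predicted, ribosomal protein, mitochondrial, haemoglobin, Xist and Y-linked genes left out of the tests. Groups entered a fit by stage, and called means a Benjamini-Hochberg adjusted p under 0.05 and an absolute log2 fold change over 1. DESeq2 1.42.0 and limma 3.58.1 (voom), RLE scaling, no filter, no fold threshold, over 50 cells per library, 1 fit of all groups, other tdTomato rules and leaving out each library were the alternatives. Library means were compared by exact two-sided permutation within stages. The study's embryo pool term could not be fitted. The fit recovered 95 to 100% of 100 genes simulated with each fold size per comparison. The simulation gave all genes a common spread between libraries and changed no low genes. It therefore does not show how well low or more variable genes are recovered.

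The cell type, its gene lists and the comparisons were chosen with earlier results of these data known, and the Hox list was added later still. The genes named were up to 10 called each way per genotype comparison (8 each way by stage) by fold change among those whose libraries did not overlap, called list members (3 each way per list by stage), and the 2 smallest p of a list with none called. Same-group libraries differed beyond sampling noise (chi-square per degree of freedom 2.48 to 5.71), so none was counted as a copy of another library's counts. Different cells of a single embryo also differ by more than sampling noise, so this does not tell whether libraries shared an embryo. The gene called against limb mesoderm is not reported here.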

Additional observations from a re-analysis of the deposited data

Results flagged for a closer look

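In the 34 groups of 4 E9.5 libraries tested for a value far from the others (Dixon's criterion, which chance meets in about 1 group of 20), 1 stood out. The mean mapping score of the Mesenchyme cells of E9.5 WT A was 0.745, below the 0.764 to 0.766 of the other E9.5 WT libraries. The null libraries ranged from 0.695 to 0.772.

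The genotype difference of Igfbp3 at E9.5 differed between Mesenchyme and a like cell type by a test of the interaction. It differed from embryo proper mesothelium by -1.99 on the log2 scale. Within Mesenchyme itself Igfbp3 was not called between the genotypes. The call was lost without E9.5 WT A, E9.5 WT D, E9.5 null C or E9.5 null D.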

How the results depend on the processing

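No paired analysis was possible because the library names carried by the cells match no pool label, although each pool gave a WT and a null library by design. Called genes at E7.5 numbered 8 with limma-voom, 36 with no filter, 29 with over 50 cells per library and 8 in 1 fit of all groups. At E8.5 they numbered 2 with RLE scaling, 18 with no filter, 3 with no fold threshold, 26 with over 50 cells, 2 in 1 fit of all groups and 1 without null cells lacking a tdTomato UMI. At E9.5 they numbered 50 with no filter, 15 with no fold threshold and 19 with over 50 cells. The limit of over 50 cells left out null B at E7.5 and at E8.5, so there it is the same fit as leaving out that library, with 1 null library left, and at E9.5 WT C, null B and null D. In WT between stages 1264 genes passed with no fold threshold. Interactions gave 1 (DESeq2) and 3 (no filter) genes for stage, 4 with no filter for mesothelium, and 0 (limma-voom) and 19 (no filter) for limb mesoderm.

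Leaving out 1 library, which at E7.5 and E8.5 leaves a lone library assumed to vary like the other genotype, moved the counts over 20 to 35 at E7.5, 1 to 73 at E8.5, 4 to 12 at E9.5, 265 to 470 for WT stages, 0 to 6 for the stage interaction, 0 to 2 for mesothelium and 0 to 1 for limb mesoderm. The log2 difference in Mesenchyme cells ran from -0.81 to 0.43 at E7.5, -0.44 to -0.29 at E8.5 and -0.31 to 0.19 at E9.5. It was 0.06647 at E7.5 with library totals in place of TMM and 0.00296 at E9.5 with WT cells holding a tdTomato UMI. Wnt2 at E8.5 ran from -0.6314 to 0.01387, above 0 without E8.5 WT A.

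With medians over cells, null minus WT was -0.01 for the mapping score, 7943 for UMIs per cell (exact permutation p = 0.0556) and 0.0325 for the mitochondrial percent. With means over cells the last was 0.00176 without tdTomato-lacking null cells. Leaving out 1 library gave -0.0128 to 0.0157 for the score, 5690 to 10075 for UMIs, 292 to 588 for genes per cell and -0.0811 to 0.0792 for the mitochondrial percent. The causes were not tested. Of values for single genes, 1691 kept their direction and side of the threshold, 116 lost and 19 gained a call, and 1 reversed.

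The depth of 27 to 160 cells a library limits low genes such as Stat3, and 2 libraries per genotype limit the E7.5 and E8.5 comparisons. Genotype cannot be told apart from other differences between the donor line and the host.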
